A study of Mus musculus with 72 samples.

Results

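A set of 10 genes that mark the primitive endoderm, namely Gata6, Gata4, Sox17, Sox7, Pdgfra, Dab2, Cubn, Amn, Afp and Ttr, were followed in mouse embryonic stem cells with and without the nucleoporin gene Nup133. The whole data set holds counts for 45321 genes, and each marker was measured by the transcript with the highest total count over all libraries. No level measured here enters the rule that picks a gene by its name, although the list was drawn up with earlier results of these data known. Of the 10, 8 genes held enough reads for a test, and Afp and Ttr did not.

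Primitive endoderm is the extraembryonic layer that separates from the epiblast in the blastocyst and later forms visceral and parietal endoderm of the yolk sac. FGF signalling through ERK favours this fate, and GATA6 and then PDGFRA, SOX17, GATA4 and SOX7 mark its stepwise commitment. The mature visceral endoderm takes up nutrients with DAB2 and the receptor pair cubilin (Cubn) and amnionless (Amn), and secretes alpha-fetoprotein (Afp) and transthyretin (Ttr). Embryonic stem cell cultures can hold some cells that express early genes of this set, and several of the genes are also used by other lineages, such as fibroblasts and neural crest (Pdgfra), endothelium (Sox17, Sox7) and heart (Gata4).

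Messenger RNA was sequenced from 18 biological samples, 3 for each genotype and day, with each sample run as 4 technical libraries that were summed. The 3 control samples of a day comprised 2 of HM1 (Nup133+/+, XY) and 1 of 1A4, a line taken from a blastocyst (Nup133+/+, Sox1gfp/+, XY). Knockout cells were lines 14 and 19, CRISPR/Cas9 derivatives of HM1 (Nup133-/-, XY, with the karyotype of line 19 given only as likely), and the blastocyst-derived line 319 (Nup133merm/merm, Sox1gfp/+, XX with additional chromosomes 8 and 12). Amn lies on chromosome 12. At day 0 the cells came from serum with LIF on feeder fibroblasts, which were reduced by a short plating before harvest. By day 2 they had been without LIF on gelatin in N2B27, a serum-free medium for neuroectodermal differentiation, and day 3 followed 24 h with 1 µM all-trans retinoic acid. Each knockout line is 1 clone or derivation, so the spread among knockouts is a spread among lines, whereas the HM1 controls are repeats of a single line.

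Nup133 was measured first as a check of the labels. It held 268.6 ± 47.7 CPM in controls at day 0 and 29.6 ± 6.81 CPM in knockouts (SD, n = 3 each, counts per 1000000 counts, CPM, after TMM scaling). On the log2 scale the knockout level differed by -3.19 ± 0.26 before differentiation, by -3.28 ± 0.26 after LIF withdrawal and by -3.40 ± 0.27 after retinoic acid (± SE, edgeR quasi-likelihood test, Benjamini-Hochberg adjusted p = 2.13e-05, 3.16e-05 and 2.01e-05). Counts assigned to genes ranged from 16.5 M to 54.4 M per sample. The shallowest sample, line 19 at day 2, also stood apart because Gm42418 took 10.1% of its counts, where the leading gene of every other sample took at most 1.48%. Marker calls gained or lost without that library are given both ways beside the result.

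Upstream sequences are shown for Pdgfra and Cubn, which were called higher in knockouts at day 3, and for Afp, whose counts at day 3 were highest in lines 14 and 19. RefSeq promoter windows (GRCm38.p6) were found for 5 of the 10 genes, the others being Amn and Dab2. Each line holds the 250 bases before the annotated start, read 5′ to 3′ on the gene's strand. Capitals mark 6-base matches on either strand to the GATA motifs AGATAA or TGATAA, or to the retinoic acid receptor hexamers AGGTCA or GGGTCA.
Pdgfra, chr5:75152001-75152250, plus strand: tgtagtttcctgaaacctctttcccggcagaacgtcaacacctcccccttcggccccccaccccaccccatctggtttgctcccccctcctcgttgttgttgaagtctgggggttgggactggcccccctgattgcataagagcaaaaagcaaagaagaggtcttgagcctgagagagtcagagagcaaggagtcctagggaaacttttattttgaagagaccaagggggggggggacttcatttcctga
Cubn, chr2:13491877-13492126, minus strand: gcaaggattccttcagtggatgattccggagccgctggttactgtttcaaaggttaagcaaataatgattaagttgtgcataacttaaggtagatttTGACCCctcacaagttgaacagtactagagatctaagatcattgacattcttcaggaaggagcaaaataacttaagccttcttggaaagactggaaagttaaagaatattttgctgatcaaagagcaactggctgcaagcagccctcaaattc
Afp, chr5:90490464-90490713, plus strand: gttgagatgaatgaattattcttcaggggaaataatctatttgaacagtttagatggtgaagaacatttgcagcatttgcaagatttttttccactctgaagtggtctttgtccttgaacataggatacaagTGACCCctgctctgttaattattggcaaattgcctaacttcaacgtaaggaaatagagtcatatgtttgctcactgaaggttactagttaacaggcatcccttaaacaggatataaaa
The Cubn and Afp windows each hold 1 match, TGACCC, which is GGGTCA read on the other strand, 153 bases before the start of Cubn and 118 bases before that of Afp. No match lies in the Pdgfra window. That window precedes another annotated start of the gene, since the Pdgfra transcript that was counted starts further downstream, at 75155899. A GGGTCA match was present in 11.6% of 32817 promoter windows of this length, either receptor hexamer in 23.9% and either GATA motif in 16.6%, so these matches describe the windows and mark no known site. G and C made up 54.4% of the Pdgfra window and 39.6% of the Cubn window.

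The markers were lower than Nup133 per kilobase of transcript, and differed widely among themselves. Nup133 held 33.4 CPM per kilobase in controls at day 3, while Dab2 held 6.66, Sox17 1.63, Sox7 1.37, Gata4 1.26, Gata6 1.07, Amn 0.941, Pdgfra 0.569 and Cubn 0.118. Dab2 thus stood first among the markers, well above Sox17. The values of Sox17, Sox7, Gata4, Gata6 and Amn lay close to each other, and Sox17 and Gata4 in particular varied widely between control samples. In knockouts at day 3 the order per kilobase was Dab2 at 4.56, Sox7 at 4.49, Gata4 at 3.19, Sox17 at 2.31, Pdgfra at 1.56, Amn at 1.16, Gata6 at 1.03, Afp at 0.268 and Cubn at 0.231. Dab2 and Sox7 shared the first place there, with an SD of Sox7 that spans the gap between them.

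**Figure D1:**
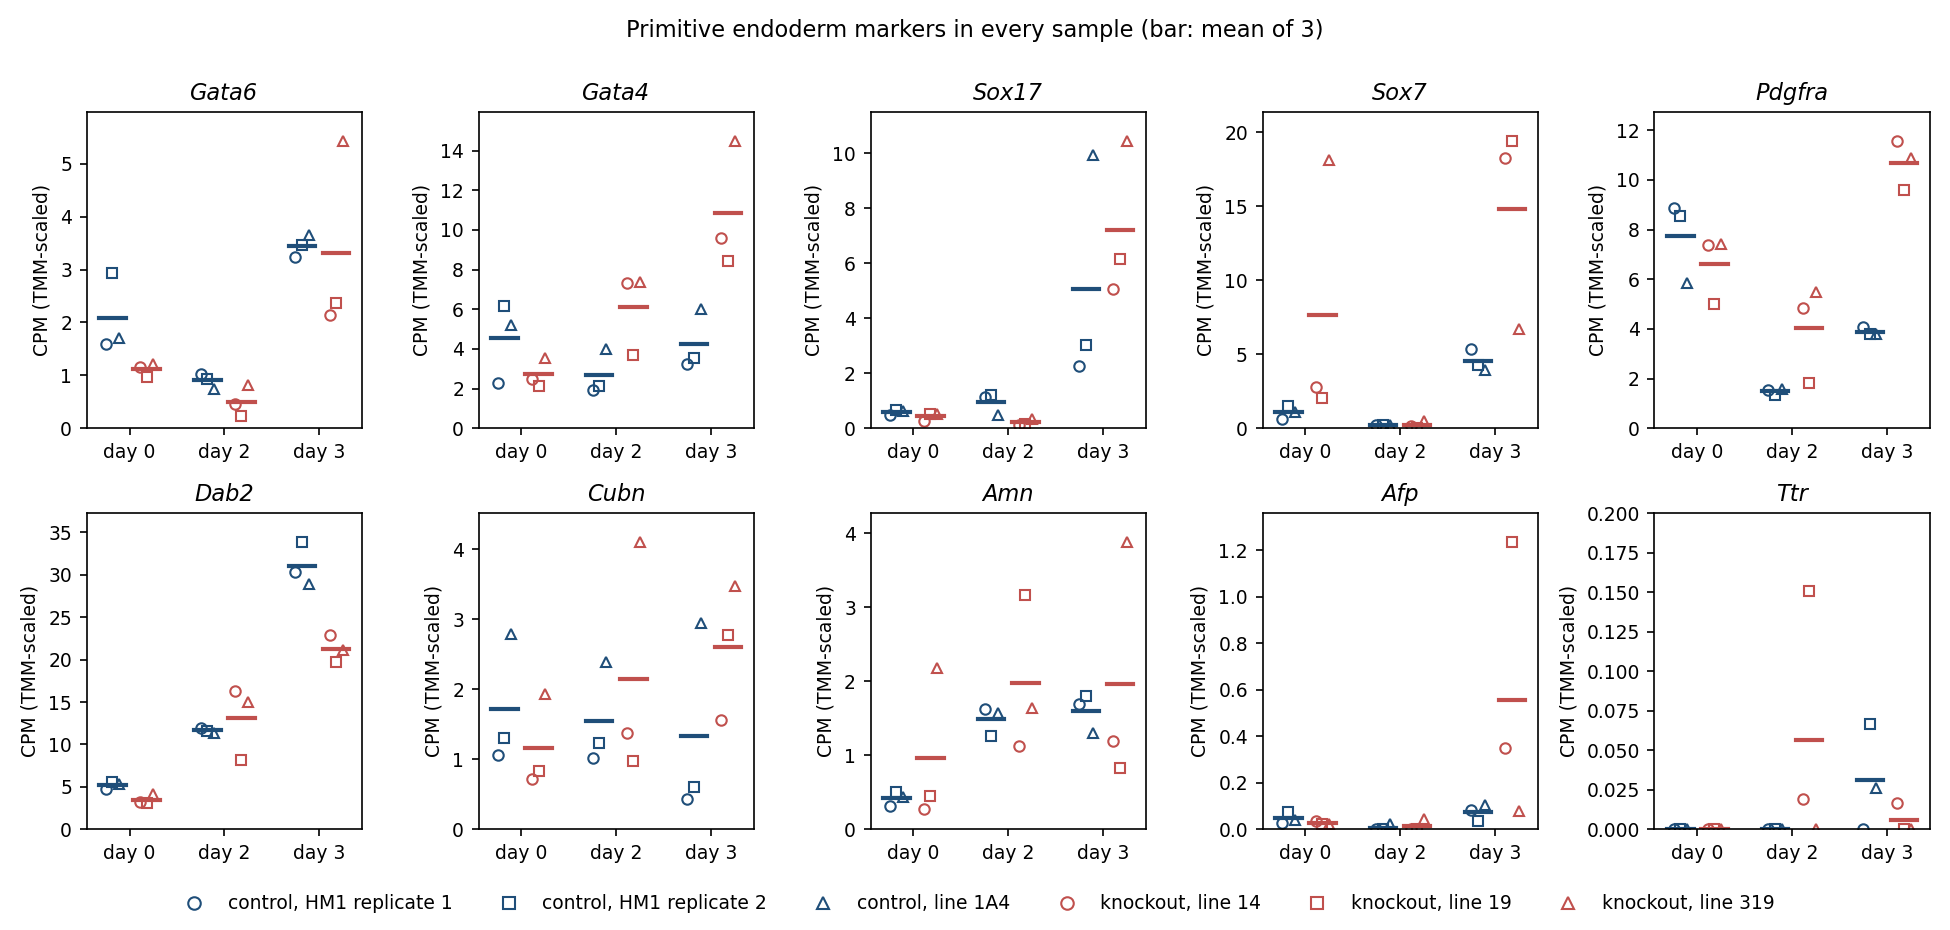
CPM (TMM-scaled, linear axes from 0) of the 10 markers in each of the 18 samples by day, with controls in blue, knockouts in red, a symbol for each line and a bar at the mean of 3 samples. Sox7, Sox17, Gata6 and Dab2 were higher at day 3 than at day 2 in both genotypes, Pdgfra and Gata4 at day 3 lay higher in each knockout line than in any control, and Ttr never passed 2 counts.

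Afp and Ttr, secreted products of mature visceral endoderm, were nearly absent, apart from Afp in lines 14 and 19 at day 3. Ttr, the carrier of thyroid hormone and retinol, held 0 counts in all 6 samples at day 0 and at most 2 counts in any sample. Zero counts allow a level of up to 0.120 CPM in the shallowest day 0 sample, taking 3 counts as the limit and counting error alone. Afp, the fetal serum protein, had 1 to 3 counts in each day 0 sample and 0 or 1 at day 2. At day 3 its counts were 3, 1 and 4 in the controls (HM1 replicate 1, HM1 replicate 2 and 1A4) and 21, 36 and 3 in lines 14, 19 and 319. The HM1-derived knockout lines therefore held 0.347 and 1.24 CPM, above the 0.0334 to 0.104 CPM of the controls, and line 319 held 0.0776 CPM, within the control range. Afp did not pass the filter for low counts in the fit of all samples. With no filter, its day 3 difference over all samples was 2.60 ± 0.80 and was not called (edgeR adjusted p = 0.074). In some smaller fits Afp passed the filter, but only through its counts in lines 14 and 19 at day 3. Entry thus depended on the difference itself, so those fits cannot test it and only their effect sizes are given. The difference was 2.58 ± 0.84 without line 19 at day 2, 3.59 ± 0.86 within HM1-derived lines and 3.55 ± 0.75 without line 319. It was 2.48 without HM1 replicate 1, 2.18 without HM1 replicate 2 and 3.42 without 1A4.

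The cultures thus contained RNA of early markers with almost no Afp or Ttr. In bulk RNA, fewer cells of a type and less RNA per cell cannot be told apart, so the levels below do not say how many cells carried these transcripts.

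In controls, the step from day 0 to day 2 lowered 3 markers and raised 2. Pdgfra, Gata6 and Sox7 fell, while Dab2 and Amn rose. In all, 5 of the 8 tested markers were called at an adjusted p under 0.05, against 35.2% of the 18273 genes tested (19.7% higher and 15.5% lower), so a count of this order is not particular to the markers. Values below are in the order HM1 replicate 1, HM1 replicate 2 and 1A4 for controls, and lines 14, 19 and 319 for knockouts.

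Pdgfra, the receptor for platelet-derived growth factor A, had 8.86, 8.53 and 5.86 CPM in controls at day 0 and 1.53, 1.33 and 1.60 CPM at day 2. The ranges do not overlap, and the fold change was -2.40 ± 0.32 on the log2 scale (edgeR adjusted p = 4.97e-05). Gata6, the transcription factor that starts the primitive endoderm programme, went from 1.59, 2.93 and 1.72 CPM to 1.03, 0.930 and 0.748 CPM, a change of -1.21 ± 0.38 (edgeR adjusted p = 0.02). Every control sample held less Gata6 at day 2 than any did at day 0. Sox7, an F-group SOX factor shared with endothelium, went from 0.624, 1.49 and 1.12 CPM to 0.225, 0.209 and 0.222 CPM, a change of -2.32 ± 0.81 (edgeR adjusted p = 0.0357). The day 2 level of Sox7 rests on 9 to 11 counts per sample.

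Dab2, a clathrin adaptor of the endocytic apparatus, rose in the same interval from 4.76, 5.55 and 5.35 CPM to 12.0, 11.6 and 11.4 CPM (log2 1.16 ± 0.22, edgeR adjusted p = 0.000757). Its 3 control samples stayed close to each other at both days. Amn, the membrane anchor of cubilin, rose from 0.312, 0.505 and 0.439 CPM to 1.62, 1.26 and 1.58 CPM (log2 1.81 ± 0.62, edgeR adjusted p = 0.0341). The day 0 level of Amn rests on 11 to 21 counts per sample. Gata4 at -0.83 ± 0.31 (edgeR adjusted p = 0.0511), Sox17 at 0.74 ± 0.49 (0.267) and Cubn at -0.13 ± 0.35 (0.814) were not called. Without HM1 replicate 1 or HM1 replicate 2 the count of called markers was 2: the adjusted p of Gata6 was then 0.0663 and 0.23, that of Sox7 0.104 and 0.243, and that of Amn 0.248 and 0.0972. Sox7 was not called with no filter on low counts (0.122), nor Amn with no background term (0.0542). With the replicate series (1 line or HM1 replicate followed over the days) as a block, Sox7 was not called (adjusted p = 0.0554) and Gata4 was, at -0.76 (adjusted p = 0.0485); without line 14, Sox7 had an adjusted p of 0.0529, and without 1A4, Sox7 had 0.132 and Amn 0.0765, while Sox17 rose by 1.04 (0.0461). Gata4 was also called without line 19 (-0.80, adjusted p = 0.0464) or without its day 2 library alone (-0.81, 0.0321).

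Knockout cells showed 4 called markers over the same days, with Dab2 and Gata4 higher and Gata6 and Sox7 lower at day 2 (4 of 8, against 35.9% of all genes, 20.8% higher and 15.1% lower). Dab2 rose from 3.19, 3.04 and 4.18 CPM to 16.3, 8.14 and 15.0 CPM (log2 1.93 ± 0.22, edgeR adjusted p = 1.31e-05). Gata4, a zinc-finger factor of endoderm and heart, rose from 2.47, 2.14 and 3.55 CPM to 7.32, 3.69 and 7.39 CPM (log2 1.21 ± 0.32, edgeR adjusted p = 0.00779). All 3 lines held more Gata4 at day 2 than any knockout line held at day 0, with line 19 closest to the day 0 values. Without line 14 the adjusted p of Gata4 was 0.104. Without the day 2 library of line 19, Gata4 had 1.41 (0.00262) and Sox7 -4.60 (0.00181).

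Sox7 dropped to almost nothing in the knockouts, from 2.81, 2.05 and 18.1 CPM to 0.171, 0 and 0.475 CPM (log2 -4.86 ± 0.86, edgeR adjusted p = 0.000475). Line 19 had 0 Sox7 counts at day 2, which allows up to 0.226 CPM in that sample. Gata6 went from 1.17, 0.976 and 1.22 CPM to 0.456, 0.226 and 0.821 CPM (log2 -1.13 ± 0.42, edgeR adjusted p = 0.0442), and the lowest value, in line 19, is 3 counts. The call of Gata6 was lost with no filter on low counts (adjusted p = 0.061), with no background term (0.0574), without that single library (0.106), without all 3 libraries of line 19 (0.14), without line 14 (0.203), and without HM1 replicate 1 (0.0787) or HM1 replicate 2 (0.0536). Pdgfra went from 7.37, 5.02 and 7.42 CPM to 4.85, 1.81 and 5.49 CPM, a change of -0.68 ± 0.30 that was not called (edgeR adjusted p = 0.0932; -0.35 without line 19 at day 2) but was with the series as a block (-0.75, adjusted p = 0.0369). Amn had 1.23 ± 0.61 (0.129; 0.59 without line 19 at day 2), and was called without line 319 (2.44, 0.00203). Without 1A4, Sox17 was called as lower (-1.14, 0.0303).

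Over the step with retinoic acid, from day 2 to day 3, the same 5 markers rose in each genotype, Sox7, Sox17, Gata6, Pdgfra and Dab2, and none fell. No sample of day 3 was without retinoic acid, so its addition and the further day of culture cannot be told apart. In controls these were 5 of 8 markers against 21.4% of all genes (12.5% higher), and in knockouts 5 of 8 against 33.6% (17.6% higher). The median log2 change of the 8 markers was 1.40 in controls and 1.08 in knockouts, where that of all genes was 0.00 in each. All 9 genes of a retinoic acid response list, among them Cyp26a1, rose in both genotypes over this step. At day 3 this list summed to 1490 to 1944 CPM in controls and 2047 to 2571 CPM in knockouts. Between genotypes 1 of the 9 was called then and 8 were not. That gene, Cyp26a1, which degrades retinoic acid, was higher in knockouts (1.24 ± 0.30, edgeR adjusted p = 0.0282). Before retinoic acid it was lower in knockouts, at day 0 (-3.80 ± 0.37, edgeR adjusted p = 7.54e-05) and day 2 (-4.71 ± 0.46, 0.000225). Its larger step (5.94 ± 0.55, edgeR adjusted p = 0.000233) thus began at 0.132 CPM in knockouts, against 4.81 CPM in controls (means at day 2). The part of this list in the marker levels was not tested.

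Sox7 had the largest change among the markers in both genotypes. Control samples went from 0.225, 0.209 and 0.222 CPM at day 2 to 5.38, 4.24 and 3.93 CPM at day 3 (log2 4.40 ± 0.80, edgeR adjusted p = 0.00115). Knockout lines went from 0.171, 0 and 0.475 CPM to 18.3, 19.4 and 6.68 CPM (log2 6.16 ± 0.88, edgeR adjusted p = 0.000116). Lines 14 and 19 stood far above the controls at day 3, and line 319 only slightly so.

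Sox17, an F-group SOX factor of endoderm and endothelium, came second. Controls went from 1.15, 1.21 and 0.465 CPM to 2.26, 3.04 and 9.94 CPM (log2 2.17 ± 0.48, edgeR adjusted p = 0.00449), with 1A4 well above both HM1 replicates at day 3. Knockouts went from 0.133, 0.151 and 0.346 CPM to 5.07, 6.15 and 10.5 CPM (log2 5.12 ± 0.59, edgeR adjusted p = 1.71e-05). Knockout values at day 2 rest on 2 to 8 counts per sample. In 1A4 and line 319, the blastocyst-derived pair, day 3 levels of Sox17 were nearly equal.

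Gata6 reached 3.23, 3.47 and 3.64 CPM in controls at day 3 (log2 1.91 ± 0.38 over day 2, edgeR adjusted p = 0.00208) and 2.15, 2.37 and 5.43 CPM in knockouts (log2 2.64 ± 0.41, edgeR adjusted p = 0.000242). Knockout lines lay on both sides of the narrow control range, line 319 above and the HM1-derived lines below. Pdgfra reached 4.09, 3.81 and 3.77 CPM in controls (log2 1.39 ± 0.31, edgeR adjusted p = 0.00497) and 11.6, 9.58 and 10.9 CPM in knockouts (log2 1.38 ± 0.31, edgeR adjusted p = 0.00328). Control Pdgfra at day 3 remained below its day 0 level in each series, whereas each knockout line ended above its own day 0 level. Dab2 reached 30.3, 33.9 and 28.9 CPM in controls (log2 1.42 ± 0.21, edgeR adjusted p = 0.000249) and 19.7 to 22.96 CPM in knockouts (log2 0.69 ± 0.21, edgeR adjusted p = 0.0214; 0.44 and 0.0448 without line 19 at day 2).

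Gata4 was not called in either genotype over this step, at 0.69 ± 0.31 in controls (edgeR adjusted p = 0.137) and 0.78 ± 0.31 in knockouts (0.0634); with the series as a block the knockout change was 0.82 (0.0346). Amn at 0.16 ± 0.57 and -0.19 ± 0.59, and Cubn at -0.50 ± 0.36 and 0.48 ± 0.35, were not called. Without HM1 replicate 1 or HM1 replicate 2 the adjusted p of Pdgfra in controls was 0.0761 and 0.0896, and that of Dab2 in knockouts 0.0596 and 0.0535.

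**Figure D2:**
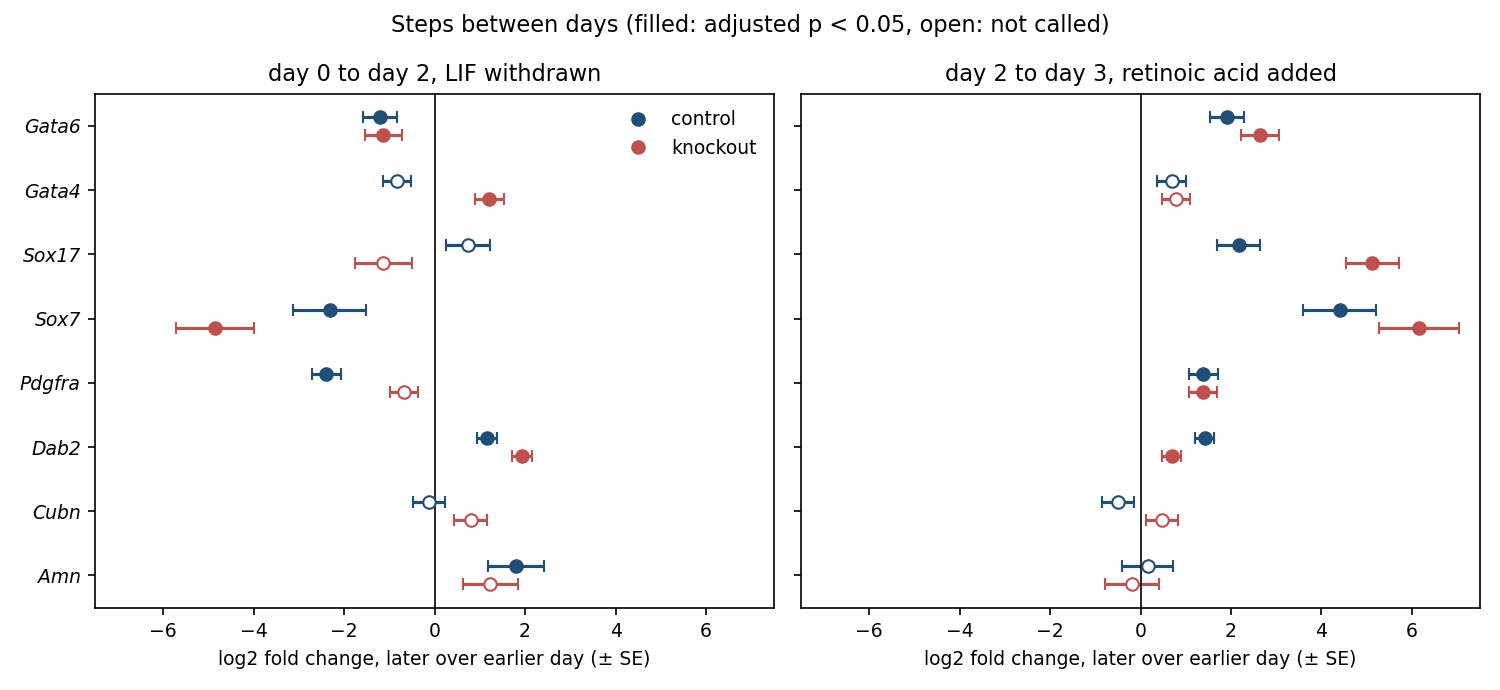
Log2 fold change of the 8 tested markers (points, with SE as bars) from day 0 to day 2 on the left and from day 2 to day 3 on the right, for controls in blue and knockouts in red, filled where the edgeR adjusted p was under 0.05. In the right panel Gata6, Sox17, Sox7, Pdgfra and Dab2 are filled for both genotypes, from 0.69 for Dab2 to 6.16 for Sox7 in knockouts.

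Whether these steps differ between genotypes was tested directly, and no marker was called at either step (edgeR, 0 of 8 each time, against 0.0219% of all genes from day 0 to 2 and 0.0383% from day 2 to 3). At an unadjusted p under 0.05 there were 4 markers at the first step and 2 at the second, against 1308 and 1626 of the 18273 genes tested. DESeq2 called Gata4 and Pdgfra at the first step and Sox17 at the second. Gata4 had the smallest p at the first step, with a knockout step 2.04 ± 0.45 above the control step on the log2 scale (edgeR adjusted p = 0.237, DESeq2 0.00442). Pdgfra had 1.71 ± 0.43 (edgeR 0.359, DESeq2 0.0161), and 2.02 without line 19 at day 2 (edgeR adjusted p = 0.0394). At the second step Sox17 had 2.96 ± 0.75 (edgeR 0.276, DESeq2 0.0207), and 3.97 (edgeR 0.0114) without 1A4. The steps of Gata6 differed by 0.08 ± 0.57 and 0.73 ± 0.55, intervals wide enough to hold a change of either sign.

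At day 0, before differentiation, no marker was called between genotypes (edgeR, 0 of 8, against 0.854% of all genes), while DESeq2 called Sox7. An unadjusted p under 0.05 was found for 4 markers and for 1946 of the 18273 genes tested. Of the 8, 6 had a negative fold change, and the median was -0.53 against 0.01 for all genes. Gata6 had -0.93 ± 0.37, Gata4 -0.78 ± 0.32, Dab2 -0.59 ± 0.22, Cubn -0.58 ± 0.36, Sox17 -0.47 ± 0.52 and Pdgfra -0.25 ± 0.30. For Gata6 and Dab2 each knockout line held less than each control. Knockouts had between 0.976 and 1.22 CPM of Gata6 against at least 1.59 CPM in controls. For Dab2 they had between 3.04 and 4.18 CPM against at least 4.76 CPM. No share of all genes that separate in this way is given here. Such separations, on this and the later days, therefore describe the samples and carry no test.

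Sox7 went the other way at day 0, at 2.57 ± 0.72 (edgeR adjusted p = 0.125, DESeq2 0.00934). Controls had 0.624, 1.49 and 1.12 CPM and knockouts 2.81, 2.05 and 18.1 CPM, so each knockout line lay above each control. The highest value was that of line 319, and without it the difference was 1.13 (edgeR adjusted p = 0.151); without line 19 it was 3.16 (0.0499). In line 319, Sox7 was 3.99 on the log2 scale above 1A4, on chromosome 14 at 63943673 to 63950732 (GRCm38, plus strand). The 11 other tested genes of that region, which takes in Gata4 at a distance of 672 kb, differed by -0.90 (Fam167a) to 1.81 (Defb42) between these lines, with Gata4 itself at -0.54. Amn was likewise high in line 319 at day 0, with 2.18 CPM against 0.312 to 0.505 CPM in controls and 0.274 and 0.442 CPM in lines 14 and 19. The part of the additional chromosome 12 in the Amn level was not tested.

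Day 2 brought 1 call between genotypes, Pdgfra, which was higher in knockouts (1 of 8, against 1.6% of all genes and 0.635% in that direction). Its fold change was 1.47 ± 0.32 (edgeR adjusted p = 0.032). Lines 14 and 319, at 4.85 and 5.49 CPM, stood apart from the controls at 1.33 to 1.60 CPM, while line 19 had 1.81 CPM from 24 counts. The call was lost without line 14 (1.24, adjusted p = 0.0778), without line 319 (1.19, 0.0526), without HM1 replicate 1 (1.51, 0.234), HM1 replicate 2 (1.40, 0.267) or 1A4 (1.40, 0.124), within HM1-derived lines alone (1.31, 0.11), and when day 2 was fitted alone (0.459). Without line 19 at day 2 the difference was 1.79 (adjusted p = 0.0017). The direction was the same in each of these fits.

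Gata4 and Sox17 came near the threshold at day 2, in opposite directions. Gata4 held 1.91, 2.14 and 3.98 CPM in controls and 7.32, 3.69 and 7.39 CPM in knockouts, a difference of 1.27 ± 0.32 (edgeR adjusted p = 0.056, DESeq2 0.00302). Line 19 lay within the control range, just below 1A4, and without that library the difference was 1.45 (edgeR adjusted p = 0.0302); it was also called without line 319 (1.38, 0.0462). Sox17 held 1.15, 1.21 and 0.465 CPM in controls and 0.133, 0.151 and 0.346 CPM in knockouts, a difference of -2.34 ± 0.59 (edgeR adjusted p = 0.0595, DESeq2 0.00404). Each knockout line lay below each control, and without 1A4, the lowest control, the difference was -2.85 (edgeR adjusted p = 0.00594). Without line 19 at day 2 it was -2.31 (0.088). Gata6 had -0.85 ± 0.42, Amn 0.39 ± 0.58, Cubn 0.35 ± 0.35, Dab2 0.18 ± 0.21 and Sox7 0.03 ± 0.97, none of them called. The median over the 8 markers was 0.26, against 0.02 for all genes.

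After retinoic acid, at day 3, Pdgfra, Gata4 and Cubn were higher in knockouts than in controls and no marker was lower among those called (3 of 8, against 5.19% of all genes and 2.75% in that direction). The receptor Pdgfra had 11.6, 9.58 and 10.9 CPM against 4.09, 3.81 and 3.77 CPM, a difference of 1.45 ± 0.30 (edgeR adjusted p = 0.015). Its spread within each genotype was small beside the gap between them. Gata4 had 9.57, 8.45 and 14.5 CPM against 3.26, 3.54 and 6.01 CPM, a difference of 1.36 ± 0.31 (edgeR adjusted p = 0.0225). The groups do not overlap for either gene. Cubn, the endocytic receptor for intrinsic factor and vitamin-binding proteins, had 1.55, 2.78 and 3.47 CPM against 0.431, 0.601 and 2.94 CPM, a difference of 1.33 ± 0.36 (edgeR adjusted p = 0.0441). For Cubn the control 1A4 lay above lines 14 and 19, so the groups overlap, and the call was lost without the term for genetic background. Against controls of their own background, lines 14 and 19 differed by 1.56 and 2.39 in log2 CPM and line 319 by 0.24. The HM1 values of Cubn at day 3 rest on 16 and 18 counts.

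These day 3 calls did not survive every left-out sample. Without HM1 replicate 1, HM1 replicate 2 or line 14, the adjusted p was 0.121, 0.151 and 0.0625 for Pdgfra, 0.122, 0.0992 and 0.0622 for Gata4, and 0.277, 0.262 and 0.096 for Cubn, so no call was left of the 3. Pdgfra and Gata4 were also lost without 1A4 (0.0743 and 0.0803), and Cubn without line 19 (log2 0.94, 0.115) with no filter on low counts (0.0504) or with the day fitted alone (0.0846). Without the term for genetic background Cubn had 0.96 (0.482) and Gata4 1.34 (0.0816), and neither was called. Within the HM1-derived lines alone Cubn differed by 2.04 (adjusted p = 0.0158) and was called, while Gata4 differed by 1.40 (0.0791) and was not. Over all alternatives the log2 difference stayed between 1.33 and 1.53 for Pdgfra, 1.28 and 1.45 for Gata4, and 0.94 and 2.04 for Cubn.

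The other 5 tested markers were not called at day 3. Sox7 had 18.3, 19.4 and 6.68 CPM against 5.38, 4.24 and 3.93 CPM, a difference of 1.79 ± 0.65 (edgeR adjusted p = 0.12, DESeq2 0.0487). Each knockout line lay above each control, and without line 319, the lowest knockout, the difference was 2.02 (edgeR adjusted p = 0.00362). Dab2 had 22.96, 19.7 and 21.1 CPM against 30.3, 33.9 and 28.9 CPM, a difference of -0.55 ± 0.21 (edgeR adjusted p = 0.137). The Dab2 groups do not overlap, and its adjusted p was 0.0161 when line 19 at day 2 was left out of the fit. Sox17 had 0.61 ± 0.44, Gata6 -0.12 ± 0.36 and Amn 0.05 ± 0.59. The median over the 8 markers was 0.97, against 0.02 for all genes, and DESeq2 called 4 markers.

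**Figure D3:**
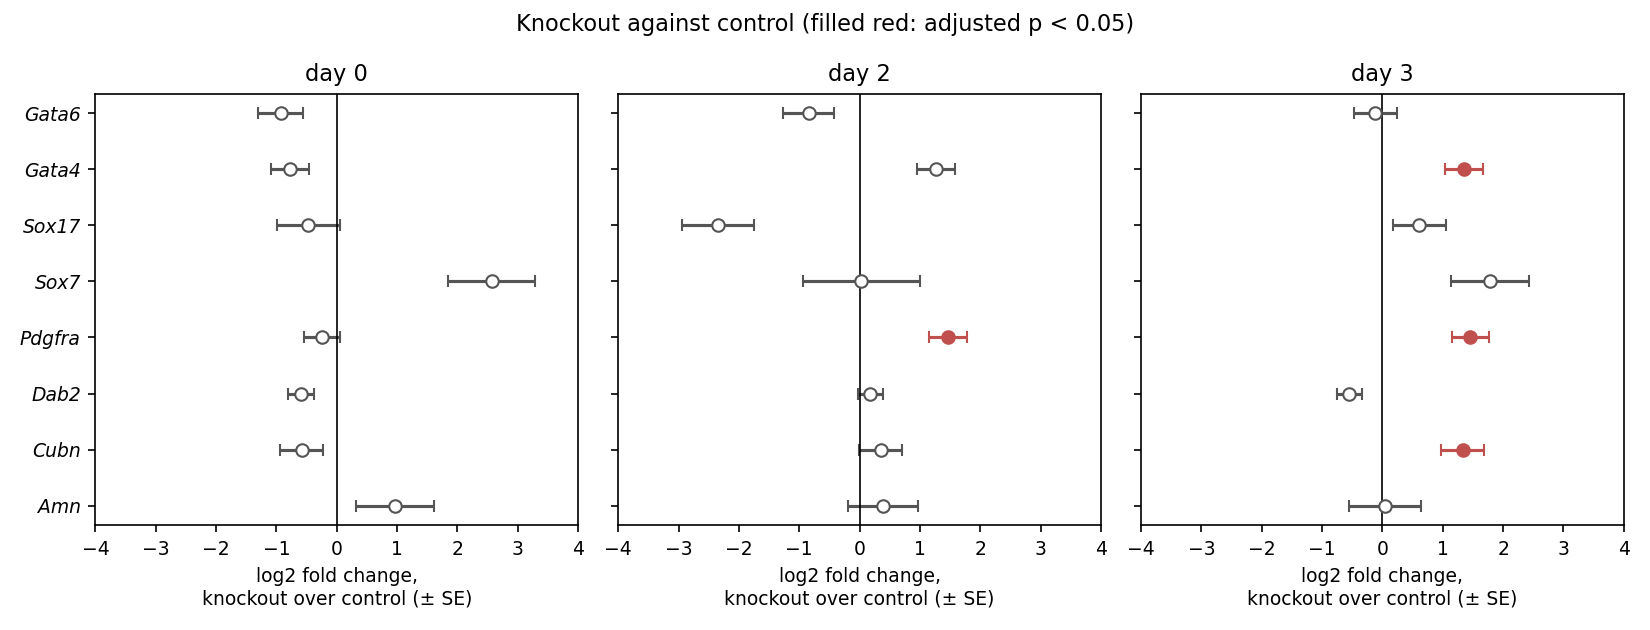
Log2 fold change of knockout over control for the 8 tested markers (points, with SE as bars) at days 0, 2 and 3, filled in red where the edgeR adjusted p was under 0.05. Filled points are Pdgfra at day 2 (1.47) and Gata4 (1.36), Pdgfra (1.45) and Cubn (1.33) at day 3, while 6 of 8 points at day 0 lie left of 0.

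Summed over the 10 genes, knockout samples at day 3 held 70.5 to 76.4 CPM and controls 50.7 to 60.6 CPM. At day 2 the ranges were 18.3 to 35.3 CPM in knockouts and 19.9 to 22.4 CPM in controls, and at day 0 they were 15.0 to 39.1 CPM and 20.0 to 27.2 CPM. The sums separate the genotypes at day 3 and overlap on the earlier days. They do not stand for a shift of every marker. Dab2, lower in each knockout line at day 3, alone held 47.7% to 62.2% of the control sums then and 27.6% to 31.6% of the knockout sums. The 39.1 CPM at day 0 is line 319, where Sox7 held 18.1 CPM.

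Each knockout line was also set against the controls of its own background, HM1 for lines 14 and 19 and 1A4 for line 319, as differences of log2 CPM with no test. Gata4 and Pdgfra at day 3 were alike in the 3 lines, with 1.49, 1.31 and 1.27 for Gata4 and 1.55, 1.27 and 1.52 for Pdgfra. At day 2 the Pdgfra difference was 1.75, 0.34 and 1.77, small only in line 19. Cubn at day 3 differed by 1.56 and 2.39 in lines 14 and 19 and by 0.24 in line 319. Sox17 at day 2 showed the same split, with -2.92, -2.76 and -0.40. Dab2 at day 3 was -0.48, -0.70 and -0.46, of 1 sign in all lines.

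The control lines differed among themselves for the same genes. In 1A4 Cubn was 1.23, 1.08 and 2.47 above the HM1 mean on the log2 scale at days 0, 2 and 3. Sox17 was -1.29 at day 2 and 1.91 at day 3 in that comparison. For Cubn and Sox17 at day 3, a difference between the control lines was therefore larger than the genotype difference in the blastocyst-derived pair, 0.24 and 0.07.

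**Figure D4:**
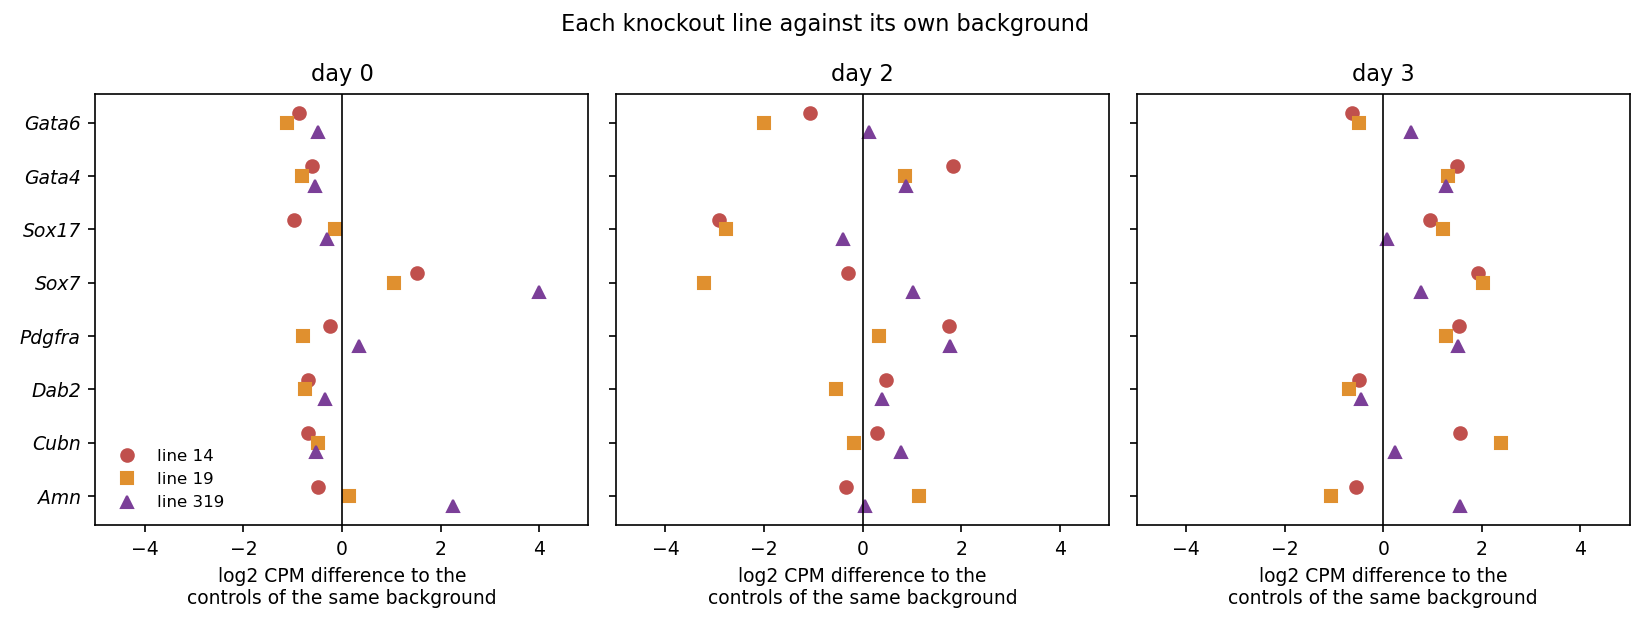
Difference in log2 CPM (prior count 1) between each knockout line and the controls of its own background for the 8 tested markers at days 0, 2 and 3, as 1 point per line. Gata4 and Pdgfra at day 3 lie between 1.27 and 1.55 in all lines, Sox7 in line 319 at day 0 lies at 3.99, and the Sox7 point of line 19 at day 2 stands for 0 counts, so that its place depends on the prior count.

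Genes that act with the markers were taken from lists by function. Among other endoderm transcription factors, Foxa2 and Gata5 rose and Eomes fell from day 2 to day 3 in each genotype. Foxa2, a forkhead factor of definitive and visceral endoderm, was lower in knockouts at day 0, with 0.479 ± 0.153 CPM against 1.99 ± 0.493 CPM (SD, n = 3; log2 -1.99 ± 0.39, edgeR adjusted p = 0.0198). Foxa2, Gata5, Eomes and Hnf4a were not called between genotypes at day 2 or day 3. Of 9 basement membrane genes, which parietal endoderm secretes in bulk and stem cells also express, 5 rose from day 2 to day 3 in each genotype, Col4a1, Col4a2, Lama1, Nid1 and Serpinh1. Between genotypes 1 of the 9 was called, Serpinh1, a collagen chaperone, lower in knockouts at day 0 (-1.18 ± 0.24, edgeR adjusted p = 0.028).

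Of 8 tested genes for visceral endoderm secretion and uptake, none was called between genotypes on any day; the most abundant, Apoe and Lrp2 (the endocytic receptor megalin, which works beside cubilin), held 275.6 ± 21.2 and 256.3 ± 26.5 CPM in controls at day 3 and 169.2 ± 46.6 and 267.8 ± 73.7 CPM in knockouts. Lrp2 rose from day 0 to day 2 in controls (1.97 ± 0.31, edgeR adjusted p = 0.000197) and in knockouts (1.17 ± 0.30, 0.00726), as Dab2 did. Of 3 parietal endoderm genes, Thbd (thrombomodulin) was higher in knockouts at day 3, with 6.67 ± 1.08 CPM against 2.18 ± 0.649 CPM (log2 1.66 ± 0.43, edgeR adjusted p = 0.0382), and Plat and Pth1r were not called. Of 4 anterior visceral endoderm genes, 1 was lower in knockouts at day 0 (Cer1) and 2 at day 2, where the list summed to 27.4 to 75.6 CPM against 24.4 to 61.6 CPM in controls. Cer1, a secreted antagonist of Nodal, had 4.37 ± 1.70 CPM in controls and 0.0839 ± 0.0455 CPM in knockouts at day 2 (log2 -5.46 ± 0.51, edgeR adjusted p = 0.000309), and Dkk1, a Wnt antagonist, was also lower then (-3.27 ± 0.72, 0.0351). At day 3 none of the 4 genes of that list was called. None of 9 genes of FGF and ERK signalling was called between genotypes on any day. From day 2 to day 3 Fgfr1 and Fgfr2 rose and Fgf4, Etv5, Spry2 and Spry4 fell in each genotype.

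Several markers are shared with other cell types, whose own genes were read beside them. A list of 12 genes of feeder fibroblasts, which express Pdgfra, summed to 269.6 to 389.7 CPM in controls and 145.1 to 233.4 CPM in knockouts at day 3, and to 174.4 to 244.2 CPM against 92.8 to 126.4 CPM at day 2. Of the 11 tested, 3 were called on each of these days, Acta2, Postn and Tagln, all lower in knockouts, and 8 were not called. Of 6 endothelial genes, which share Sox7 and Sox17, Kdr was lower in knockouts at day 2 (-2.31 ± 0.46, edgeR adjusted p = 0.0204) and day 3 (-1.98 ± 0.38, 0.011) and the other genes were not called; the list's sum at day 3 was 12.6 to 30.0 CPM in knockouts and 29.1 to 51.0 CPM in controls. Of 5 tested cardiac genes, which share Gata4, Isl1 was higher in knockouts at day 3 (1.03 ± 0.26, edgeR adjusted p = 0.0364), and the list summed to 8.21 to 15.7 CPM against 9.06 to 15.0 CPM in controls. Of 5 neural crest genes, a lineage with Pdgfra, 1 was called at day 2, Foxd3, higher in knockouts (1.63 ± 0.34, edgeR adjusted p = 0.0258). Foxd3 made up most of the list's sum, with 63.7 to 80.5 CPM of 66.3 to 82.9 CPM in knockouts and 15.7 to 26.0 CPM of 17.9 to 27.4 CPM in controls. None was called at day 3.

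Neural progenitor genes summed to 379.2 to 1098 CPM in knockouts and 400.5 to 470.1 CPM in controls at day 3. Zic1 (2.94 ± 0.44, edgeR adjusted p = 0.00297) and Pax6 (2.25 ± 0.45, 0.0118) were higher in knockouts then. Pax6 ranged from 36.4 to 322.3 CPM in knockouts and from 23.5 to 42.6 CPM in controls, so its lowest knockout value lay within the control range. Mesendoderm genes summed to 40.9 to 73.8 CPM in knockouts and 12.1 to 20.9 CPM in controls at day 3, where Lhx1 was higher (2.24 ± 0.46, edgeR adjusted p = 0.0133). Lhx1 made up most of this sum, with 42.3 ± 22.8 CPM in knockouts and 9.02 ± 5.62 CPM in controls, and the other 5 tested genes were not called. At day 2 Lhx1 was lower in knockouts (-4.20 ± 0.59, edgeR adjusted p = 0.00314). At day 0 the list summed to 4.35 to 5.36 CPM in knockouts against 20.7 to 38.8 CPM, where Lhx1, Mixl1 and Fgf8 were lower. Trophoblast genes, which include no marker studied here, had Cdx2 higher at day 3 (3.26 ± 0.89, edgeR adjusted p = 0.0448), with 0.744, 0.515 and 19.7 CPM in lines 14, 19 and 319 against 0.242 to 0.911 CPM in controls, so that 1 line stands apart; Elf5 stayed under 0.1 CPM on average in every group, and Tpbpa had 0 counts in all samples of 4 of the 6 groups. Pluripotency genes fell from day 0 to day 2 in each genotype (8 of 9) and differed between genotypes in Sox2 at day 2 and Klf2 at day 3. The part of any of these cell types in the marker levels was not tested.

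Across the 18 samples, which share days, lines and libraries, the markers did not move as 1 block. Gata6 and Sox17 had the highest correlation of log2 CPM among the tested markers (Pearson r = 0.82, n = 18), followed by Gata6 with Sox7 (0.76) and Sox7 with Pdgfra (0.71). Amn and Pdgfra had -0.33 and Dab2 and Pdgfra -0.11. Among all tested genes outside the list, the most similar to Dab2 was Tbc1d9b (0.98), to Sox7 Ccdc85a (0.95), to Gata6 Creb3l2 (0.95), to Amn Jkamp (0.95), to Pdgfra Dlx1 (0.94), to Sox17 Foxc1 (0.94), to Gata4 Nfia (0.82) and to Cubn Hprt (0.80). These values describe the 18 samples and carry no test.

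The positions of the markers bear on how their reads were assigned. Gata4 (chromosome 14, 63198922 to 63271692, minus strand), Sox7 (chromosome 14) and Amn (chromosome 12, 111271095 to 111276426, plus strand) overlap no other annotated gene in GENCODE M21 on GRCm38. Gata6 shares exon sequence with 1010001N08Rik on the other strand, Cubn (chromosome 2, 13276338 to 13491813, minus strand) with Gm13270 on the other strand, and Pdgfra (chromosome 5, 75152292 to 75198215, plus strand) with Mir7025. Sox17 (chromosome 1, 4490931 to 4497354, minus strand), Dab2 (chromosome 15, 6299788 to 6440712, plus strand) and Afp (chromosome 5, 90490737 to 90508907, plus strand) overlap other genes only outside exons. How the authors' counting used strand is not given in the sources used here, so reads of Gata6 and Cubn cannot be separated from reads of the opposite gene where exons overlap.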

How the data were processed

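Messenger RNA of 18 biological samples (6 groups of 3, 72 libraries) was measured from oligo(dT)-purified RNA made into stranded libraries, per the labels' protocols. Whole-number counts for each Ensembl transcript were deposited by the authors, without normalization; the submitters' processing notes name bcl2fastq 2.17.1.14, STAR 2.4.0k, SAMtools, HTSeq and the build mm10. The annotation release and the strand setting are not given in the sources used here. The authors' counts assign a read to each transcript it overlaps, as seen in the values, so transcripts were not added up: the transcript with the highest total stood for its gene (GENCODE M21), and 108214 of 110379 identifiers matched. Unmatched identifiers held 1.44% to 2.46% of counts and were left out. Technical libraries differed by little more than counting error (chi-square per degree of freedom 1.01 to 1.03) and were summed.

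Tests used edgeR 4.0.16 with limma 3.58.1 in R 4.3.3, with TMM scaling, filterByExpr (18273 genes kept), and a robust quasi-likelihood fit of 6 groups with a term for HM1-derived or blastocyst-derived background (11 residual degrees of freedom). P-values were adjusted by Benjamini-Hochberg over all genes, and a gene was called under 0.05. The steps were checked on simulated data. Alternatives were DESeq2 1.42.0, other size factors, no filter, the longest transcript, no background term, HM1-derived lines alone, each day alone, a block for replicate series, and each replicate left out. The replicate series (HM1 replicate 1, HM1 replicate 2, or a line) pairs samples between days, and deviations of the same series on different days correlated above 0.1 in 16 of 18 pairs (-0.08 to 0.39). Nothing in the labels says that the HM1 replicates are separate cultures beyond the words biological replicate, so p-values measure the spread between these samples. CPM values carry SD over 3 samples, and a count of 0 allows up to 3 counts; such limits cover counting error only.

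The 10 markers and the 15 further lists (107 genes) were chosen with earlier results of these data known. From each further list, up to 4 genes called between genotypes are named, largest change first, or else up to 2 with the highest mean CPM; other genes of these lists appear as names only. For each marker that reached 1 CPM on average in some group, the tested gene with the highest correlation is named. Some genes of these lists are not reported here.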

Additional observations from a re-analysis of the deposited data

Results flagged for a closer look

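Among the 8 tested markers, in 5 cases the blastocyst-derived pair moved against both HM1-derived knockout lines, as differences of log2 CPM between a line and the controls of its own background; these differences between lines were not tested. Gata6 in line 319 was 0.13 above 1A4 at day 2 and 0.57 above it at day 3, where lines 14 and 19 were at -1.06 and -1.996 and at -0.63 and -0.50. Sox7 at day 2 was 1.01 above 1A4 in line 319 and at -0.30 in line 14, with 0 counts in line 19. Pdgfra at day 0 was 0.34 above 1A4 in line 319, against -0.24 and -0.79. Amn at day 3 was 1.56 above 1A4 in line 319, against -0.55 and -1.06; line 319 carries an additional chromosome 12, on which Amn lies. Afp did not pass the filter in the fit of all samples. Its day 3 counts were 3 in line 319 and 4 in 1A4, against 21 and 36 in lines 14 and 19 and 3 and 1 in HM1. Each case rests on 1 sample per line, and the values of Gata6 and Sox7 at day 2 rest on few counts.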

How the results depend on the processing

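Of 23 called marker results (8 markers, 9 comparisons), all 23 kept their call and direction under relative log expression size factors, DESeq2 and the longest transcript, 22 without line 319 and without line 19 at day 2, 21 without line 19 and within HM1-derived lines alone, 20 with no filter on low counts, 19 with no background term, 18 without 1A4, 16 without line 14, and 13 without either HM1 replicate. With each day fitted alone, 4 of the called results could be refitted and 2 kept their call. Pdgfra at day 2 (edgeR adjusted p = 0.459) and Cubn at day 3 (0.0846) lost theirs. The cause of the lower number without an HM1 replicate was not tested. No called result changed sign in any alternative; 39 sign changes were of results not called in either fit. Counts of called markers that moved were as follows. Under DESeq2 there were 1 at day 0, 3 at day 2, and 2 and 1 in the genotype by step tests, where edgeR called 0, 1, 0 and 0. At day 2 there were 3 with no filter, 2 with the longest transcript, 2 without line 19 at day 2 and 0 with the day fitted alone. At day 3 there was 1 with no background term and 5 without line 19 at day 2, against 3. The 5 include Afp, which was not in the fit that gave 3, so these counts cover unlike sets of genes. The genotype by step tests gave 1 (day 0 to 2) without line 19 at day 2 and 1 (day 2 to 3) within HM1-derived lines. With each replicate left out in turn, the count ranged from 0 to 1 at day 0, 0 to 2 at day 2 and 0 to 5 at day 3, from 2 to 6 for the first control step, 2 to 5 for the first knockout step, and 0 to 1 for the second genotype by step test. The 5 at day 3, without line 319, likewise include Afp. With a replicate block for series, 18 of the 19 called steps kept their call; Sox7 in controls did not. No paired analysis was possible for knockout against control within a day because the replicate numbers join no control line to a knockout line. Depth limits Sox7, Sox17 and Gata6 at day 2, and Afp and Ttr throughout. It also limits Cubn in HM1 at day 3 (16 and 18 counts) and Amn in controls at day 0 (11 to 21 counts).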
